A study of Mus musculus with 12 samples.

Results

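Intronic lncRNA peaks are peaks of N6-methyladenosine (m6A) enrichment on long noncoding RNAs (lncRNAs) that the deposited lists place in an intron of another transcript, either on its strand (intron sense-overlapping) or on the opposite strand (intronic antisense). They were chosen by that annotation alone, with no measured value, and each peak and transcript was counted once. There were 1614 such peaks among 11628 lncRNA peaks in 6 lists, and merging peaks that overlapped by at least 1 bp across the lists gave 668 intronic regions among 4414 lncRNA regions. Of the 1614 peaks, 925 were antisense, 643 were sense and 46 carried both relationships to different hosts.

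The cells were C17.2, an immortalized mouse neural stem cell (NSC) line that is carried as a clone, so all libraries come from 1 line. Methylated RNA immunoprecipitation sequencing (MeRIP-seq) captures RNA fragments with an m6A antibody and compares them with the input RNA. Control cells stayed in standard culture, and hypoxia/reoxygenation (H/R) cells were held at 5% oxygen for 12 h and then returned to standard oxygen for 48 h, with no genetic change in either group. Each group had 3 immunoprecipitated libraries and 3 input libraries, and each of the 6 pairs gave 1 list, named A to C here within each group. The labels do not say that the replicates were separate cultures, so the p-values measure the spread between these libraries, which may be technical.

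An intron is removed from the host transcript during splicing, but it can hold independent transcription units: antisense lncRNAs, short noncoding transcripts of the host itself, and processed pseudogenes, which are spliced mRNAs of other genes copied back into the genome. m6A is written by the METTL3 and METTL14 methyltransferase complex on adenosines within the sequence class DRACH, and in mRNA it is known from long internal exons and from the region around the stop codon. The values given per peak are the fold enrichment over local background and a p score, which is -10 times log10 of the p of the peak caller.

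The following windows show the DRACH site nearest the centre of the peak, in capitals, for the strongest regions with a peak in each H/R list and none in a control list (Sh3d19, Fam110b and Zfp597), for the only region with the reverse pattern (Dleu2) and for the strongest regions called in all 6 lists (Gm6451, Cdk11b and Gm12346, the first 3 by lowest fold enrichment among regions that tie at the highest p score), each written on the strand of the RNA with coordinates in mm10.
Sh3d19, chr3:85971109-85971133, plus strand: ggggaaggGAACCggacgggaagcg
Fam110b, chr4:5921155-5921183, plus strand: aaagtaatccttTAACAaacttaaaagaa
Zfp597, chr16:3884428-3884456, minus strand: gcgtgcatgcgtGGACAccggcggcggcg
Dleu2, chr14:61603316-61603344, minus strand: ttcttgtatactGAACTatacacaaaggc
Gm6451, chrX:151414049-151414077, minus strand: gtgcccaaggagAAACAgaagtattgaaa
Cdk11b, chr4:155630244-155630272, plus strand: cgccaccgagaaGAACAagataaagctcg
Gm12346, chr11:77294064-77294092, plus strand: tgaaagaagaccAAACTgagtatttggag
The 316-base peak of Sh3d19 held 1 DRACH site, the 895-base peak of Dleu2 held 20 and the 1430-base peak of Gm12346 held 35. A match shows only that these letters are in the window and not that the adenosine was methylated.

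The H/R lists held more intronic lncRNA peaks than the control lists, and the whole lncRNA lists grew with them. The control libraries had 216, 155 and 158 intronic peaks, and the H/R libraries had 358, 271 and 456. The groups did not overlap, with means of 176.3 ± 34.4 and 361.7 ± 92.6 (SD, 3 libraries each; p = 0.1 in an exact permutation test, two-sided, the smallest p that 3 against 3 libraries allow, and 0.28 after Benjamini-Hochberg adjustment over 14 per-library comparisons). Intronic peaks made up 13.5%, 13.9% and 15.1% of the control lncRNA lists and 13.5%, 13.7% and 14.1% of the H/R lists. These shares overlapped between the groups and differed by -0.427 percentage points (exact permutation p = 0.6, n = 3 each).

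When every lncRNA list was held to the 1047 peaks with the highest p scores, the length of the shortest list, the order of the groups turned. The control lists then held 146, 141 and 158 intronic peaks and the H/R lists held 121, 126 and 111 (exact permutation p = 0.1, n = 3 each). The number of host genes moved likewise, from 205, 162 and 164 in the control libraries and 366, 264 and 435 in the H/R libraries to fewer in H/R at equal length, where H/R minus control was -32.7 host genes. Holding the lists to the highest p scores also leaves out their weaker peaks. The median p score was lower for intronic than for other lncRNA peaks in every library but control A. It averaged 187 ± 35.6 against 235 ± 40.6 (SD, n = 6 libraries, exact sign-flip permutation p = 0.0625, 0.0859 adjusted). A cut by p score can thus remove more of the intronic peaks from the longer lists. The part of this in the turned order was not tested. Sequencing depth was not analysed here and its part in the list lengths was not tested.

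**Figure D1:**
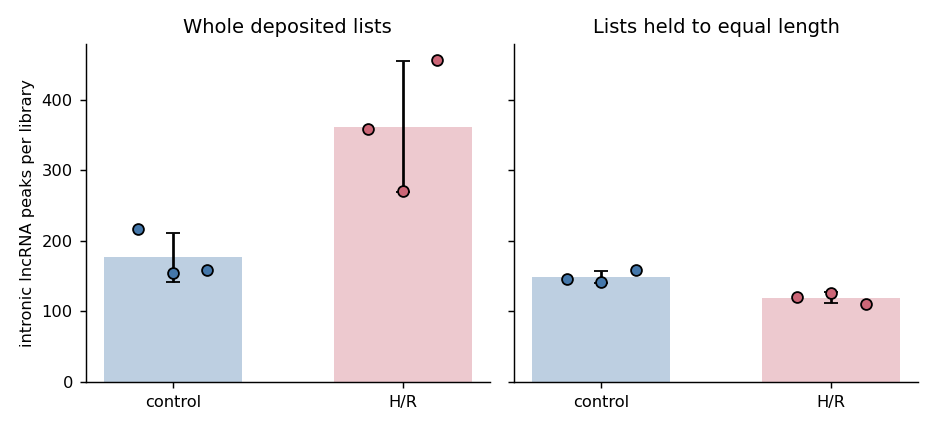
Number of intronic lncRNA peaks per library (y axis) in the control and H/R groups, for the whole lists (left) and for lists held to 1047 peaks each (right). Points are libraries, bars are group means and error bars are SD (n = 3); H/R lies above control on the left, from 271 to 456 peaks against 155 to 216, and below it on the right, from 111 to 126 against 141 to 158.

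The intronic peaks shared the lower fold enrichment of the H/R lists. Their median fold enrichment was 21.8, 35.0 and 30.2 in the control libraries and 8.66, 15.4 and 9.71 in the H/R libraries, without overlap (exact permutation p = 0.1, n = 3 each, 0.28 adjusted). The lncRNA peaks of other relationships had nearly the same medians in the same libraries, from 20.8 to 34.0 in control and from 8.68 to 15.6 in H/R. Intronic peaks were 478, 483 and 475 bases long at the median in control libraries and 422.5, 454 and 354.5 in H/R libraries (exact permutation p = 0.1, n = 3 each), and at equal list length the difference changed sign to 11.5 bases longer in H/R (exact permutation p = 0.7). No intronic peak had a false discovery rate at or under 5% by the peak caller, and the lowest was 25.0%.

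Presence in the lists was uneven. Of the 668 regions, 316 (47.3%) were in 1 list, 278 of them in an H/R list, and 73 (10.9%) were in all 6. The H/R C list alone held 179 regions found in no other list, the H/R A list 75 and the H/R B list 24. Control libraries shared 41.8% to 49.0% of their joint regions with each other, H/R libraries 35.9% to 49.2%, and a control and an H/R library 23.0% to 48.8%. The between-group pairs included control A with H/R B at 48.8%, as high as pairs within a group.

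In all, 32 of the 668 regions (4.79%) had a peak in each H/R list but none in a control list (H/R-only), and 1 region (0.1497%) had the reverse pattern (control-only). Over all 4414 lncRNA regions the same calls were made for 5.69% and 0.159%, so the intronic shares lay near the background. Regions seen in all 6 lists were 10.9% of the intronic regions and 14.0% of all lncRNA regions. These counts changed with single libraries: 77 regions were H/R-only when H/R B was left out and 49 when H/R C was, and 9 were control-only without control A and 6 without control C. At equal list length, 2 intronic regions were H/R-only and 2 were control-only of 278 (0.719% each), against 1.57% and 1.36% of all lncRNA regions. The 2 H/R-only regions were then Sh3d19 and Gm15682, which was also called in the full control A list, and the control-only regions were Dleu2 and Gm15712, which was called in all 6 full lists.

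**Figure D2:**
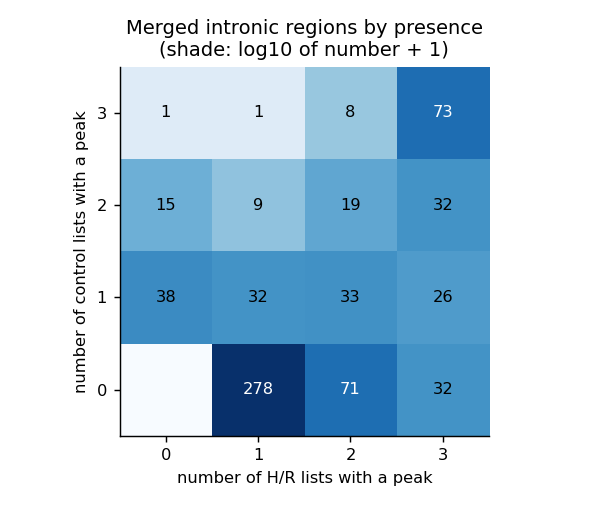
Number of merged intronic regions (cell values; shade on a log10 scale) by the number of H/R lists (x axis) and control lists (y axis) with a peak. The lower row holds 278, 71 and 32 regions seen in 1, 2 and 3 H/R lists but absent from the control lists, and the upper right cell the 73 regions seen in all 6 lists.

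Pseudogenes and lncRNA genes were the most frequent classes of RNA with intronic peaks. Of the 668 regions, 214 (32.0%) lay on pseudogenes, 207 (31.0%) on annotated lncRNA genes, 85 (12.7%) on other noncoding transcripts of coding genes, 62 (9.28%) on retained-intron transcripts and 6 on other RNAs, and 94 (14.1%) could not be matched to the annotation. In all 6 lists were 37 of the pseudogene regions (17.3%), 13 (6.28%) of those on lncRNA genes and 10 (11.8%) of those on other transcripts of coding genes. So were 5 (8.06%) of those on retained-intron transcripts and 8 (8.51%) of the unmatched ones. The difference between the classes was not tested. Pseudogenes made up 50.7% of the regions in all 6 lists and 23.1% of those in 1 list. Among the 32 H/R-only regions, 10 were on pseudogenes, 7 on retained-intron transcripts, 6 on other transcripts of coding genes, 4 on lncRNA genes and 5 on unmatched RNAs. The region called only in control lists was on a lncRNA gene.

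**Figure D3:**
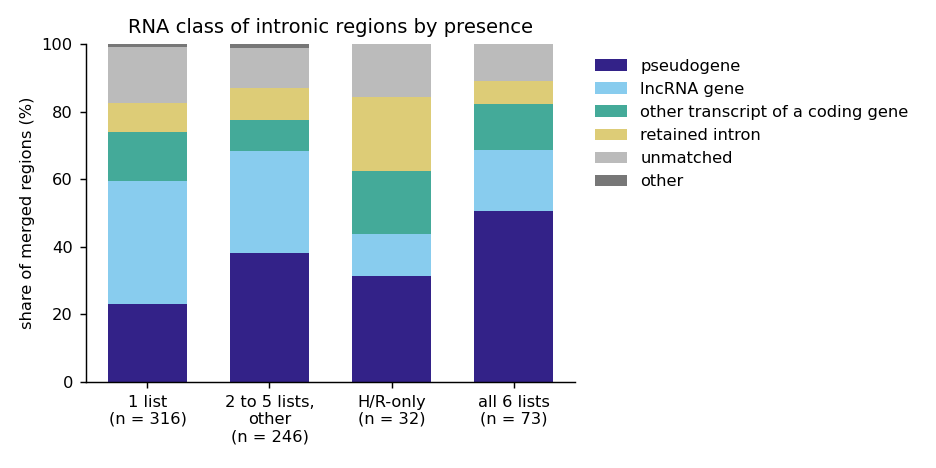
Share of merged intronic regions (y axis, percent) in each class of RNA, for regions called in 1 list, in 2 to 5 lists, in the H/R-only pattern, and in all 6 lists; the single control-only region is not drawn. Pseudogenes take 23.1%, 38.2%, 31.2% and 50.7% of the regions, and lncRNA genes 36.4%, 30.1%, 12.5% and 17.8%.

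Within every library, pseudogenes held a larger share of the intronic peaks than of the other lncRNA peaks. The intronic shares were 46.8%, 39.4% and 48.7% in control and 35.5%, 42.8% and 30.9% in H/R, and the shares among other lncRNA peaks ranged from 11.7% to 19.8%. The mean difference was 25.5 percentage points, with intronic peaks higher in 6 of 6 libraries (two-sided exact sign-flip permutation p = 0.0312, the smallest that 6 libraries allow, 0.0491 after adjustment over 11 such comparisons). The pseudogene share differed by -8.55 percentage points between H/R and control, with overlapping libraries (exact permutation p = 0.2, n = 3 each, 0.35 adjusted). A related difference was that 44.6% ± 5.71 (SD, n = 6 libraries) of intronic peaks lay on transcripts of 1 exon, against 17.9% ± 3.63 of the others, and that 25.7% ± 6.91 spanned their transcript from end to end, against 7.70% ± 2.79 (exact sign-flip permutation p = 0.0312 each, n = 6, 0.0491 adjusted).

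Most pseudogene regions were close copies of coding transcripts elsewhere in the genome. Of the 214 pseudogene regions, 204 had a match to a coding transcript at another locus, and 161 (75.2%) matched at 90% identity or more over at least 80% of the peak, with a median identity of 97.9%. At 97% identity or more there were 98, 24 of them among the 37 pseudogene regions in all 6 lists. In the other classes together, 15 of 454 regions matched at 90% identity. The 161 copies had 111 different parents, and 53 copies were of ribosomal protein genes. The parent with the most copies was Rpl21, a protein of the large ribosomal subunit, with 9 regions of which 4 were in all 6 lists. It was followed by Hmgb1, a chromatin protein, with 8 regions, Hnrnpa3, an RNA-binding protein, with 6, and the glycolytic enzyme Gapdh with 4. The study kept uniquely mapped reads, and reads from a stretch where a copy and its parent are identical cannot be told apart, so the placing of these peaks is uncertain. Without the regions of 97% identity or more, 48 regions were in all 6 lists and 27 were H/R-only.

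Pairs of a pseudogene and its parent transcript show how few bases separate them. Each stretch is 60 bases long, capitals mark the bases that differ between the 2 sequences of a pair, and the parent stretch lies in the coding sequence of the parent transcript.
Gm12346, chr11:77293663-77293722, plus strand: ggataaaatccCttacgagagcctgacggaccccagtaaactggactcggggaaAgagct
Hsp90aa1, parent of Gm12346: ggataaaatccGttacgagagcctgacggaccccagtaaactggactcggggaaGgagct
Gm10163, chr9:88391118-88391177, plus strand: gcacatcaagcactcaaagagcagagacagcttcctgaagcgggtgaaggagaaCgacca
Rpl21, parent of Gm10163: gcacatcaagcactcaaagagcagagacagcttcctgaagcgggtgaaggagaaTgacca
Rps6-ps3, chr9:53690167-53690226, minus strand: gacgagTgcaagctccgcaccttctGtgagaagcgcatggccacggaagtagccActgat
Rps6, parent of Rps6-ps3: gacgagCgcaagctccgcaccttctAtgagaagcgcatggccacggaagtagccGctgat
Over the whole peak, Gm12346 matched Hsp90aa1 at 99.5% with 7 mismatches in 1430 aligned bases, Gm10163 matched Rpl21 at 99.6% with 2 in 545, and Rps6-ps3 matched Rps6 at 98.6% with 10 in 707.

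**Figure D4:**
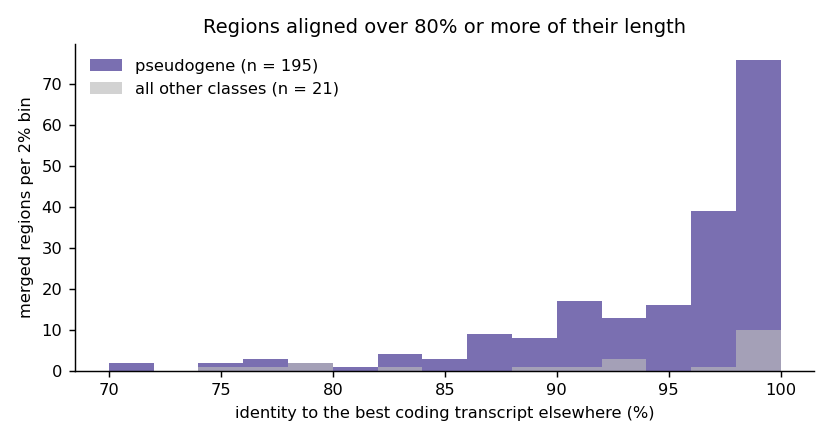
Number of merged intronic regions (y axis) by their identity to the best matching coding transcript at another locus (x axis, percent, bins of 2%), for regions whose match covers at least 80% of the peak. Of the 195 pseudogene regions drawn, 115 lie at 96% identity or more, and 21 regions of all other classes are drawn.

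A copy and its parent were not always called together. Of the pseudogene copies called in a library, the parent gene had an mRNA peak in the same library for 38.3%, 44.9% and 36.4% in control and for 51.0%, 44.9% and 53.3% in H/R (exact permutation p = 0.2, n = 3 each). As genes, 41.7% to 55.7% of the parents had an mRNA peak, against 20.2% to 38.5% of all coding genes, a mean difference of 20.8 percentage points (exact sign-flip permutation p = 0.0312, n = 6 libraries, not adjusted). The coding genes were not limited to expressed ones, and parents were not compared with expressed genes. Hsp90aa1, an inducible cytosolic heat shock protein, had 1 mRNA peak in every library, with fold enrichments of 50.8, 57.3 and 47.3 in control and 21.3, 38.1 and 20.3 in H/R. Its copy Gm12346 had 119, 126 and 196 in control and 59.6, 85.6 and 36.7 in H/R, higher than the parent in each library. Rpl21 had no mRNA peak in any library, while its copy Gm10163 (chr9:88390807-88391351, antisense in intron 18 of the sorting nexin gene Snx14) was called in all 6, with 33.0, 30.4 and 30.3 in control and 12.1, 15.6 and 7.38 in H/R. The groups did not overlap for either copy by fold enrichment, but they did by the percentile of fold enrichment within the own list, where H/R minus control was 0.395 for Gm12346 and -5.04 for Gm10163.

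Sense peaks lay on pseudogenes more often than antisense peaks in 6 of 6 libraries, a difference that missed the adjusted threshold. The antisense share of intronic peaks was 56.5%, 56.8% and 56.3% in control and 58.1%, 60.1% and 55.9% in H/R (exact permutation p = 0.4, n = 3 each). Pseudogenes made up 53.4% ± 8.15 of sense peaks and 34.0% ± 6.53 of antisense peaks (SD, n = 6 libraries), with sense higher in 6 of 6 (exact sign-flip permutation p = 0.0312, 0.0521 adjusted over 5 comparisons). Among the 207 regions on lncRNA genes, 169 were antisense and 29 sense. Sense peaks were longer at the median by 78.3 bases (range 41.5 to 129, exact sign-flip permutation p = 0.0312, n = 6, 0.0521 adjusted). The median fold enrichment was 18.9 ± 9.36 for sense and 20.7 ± 11.6 for antisense peaks (SD, exact sign-flip permutation p = 0.125, n = 6, 0.156 adjusted). The density of DRACH sites was 20.8 per kb in sense and 20.9 per kb in antisense peaks (exact sign-flip permutation p = 0.812, n = 6). H/R-only calls were made for 16 of 254 sense regions (6.30%) and 16 of 390 antisense regions (4.10%), against 5.69% of all lncRNA regions, and the difference between the kinds was not tested.

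The relationship in the lists belongs to the lncRNA transcript and its host, and not to the peak itself. Of the 1614 peaks, 1334 (82.7%) lay inside the span of the host transcript and 280 (17.3%) lay wholly outside it, on a part of the lncRNA that runs beyond the host. Peaks outside the host were 24.0% of antisense peaks and 6.998% of sense peaks. Among the 1607 peaks whose host transcript has a model, 0 overlapped an exon of that transcript. An exon of a protein-coding transcript, coding or untranslated, was overlapped by 25.1% ± 1.94 of intronic peaks per library, against 67.3% ± 1.47 of the other lncRNA peaks, a difference of -42.2 percentage points (SD, n = 6 libraries, exact sign-flip permutation p = 0.0312, 0.0491 adjusted). The other relationships include overlap with exons by definition. The annotation thus set the direction of this difference in advance, and its p-value is no support for it. By class, 57 of the 62 regions on retained-intron transcripts overlapped such an exon on the same strand, and 2 of the 214 on pseudogenes did. The class retained intron names the type of the transcript and does not place the peak on the retained intron. On the regions that touch such an exon, signal of the coding transcript and of the lncRNA cannot be told apart. No lncRNA peak overlapped an mRNA peak of the same library, so a peak was given to 1 list only.

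Of the regions inside a host, 536 could be placed in a numbered intron of a listed host transcript, and 229 of them (42.7%) were in the first intron. The median length of these introns was 27121 bases.

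The 10 strongest regions called in all 6 lists were ranked by their lowest p score, with ties ordered by the lowest fold enrichment. The peak caller gave 122 intronic peaks a p score of exactly 3100, so the strongest peaks have no order by that score, and fold enrichment is given here. Fold enrichment was lower throughout the H/R lists, so the percentile of a region among the lncRNA peaks of its own list is given beside it where the groups differ. Gm6451 (chrX:151413763-151414384, antisense in intron 4 of Fam120c) is a copy of Nsa2, a ribosome biogenesis factor, at 97.3% identity. Its fold enrichment was 321, 299 and 439 in control and 117, 202 and 137 in H/R, without overlap. Its percentile ran the other way, at 99.4, 98.7 and 99.3 in control and 99.6, 99.7 and 99.7 in H/R, also without overlap. The Nsa2 mRNA peaks in the same libraries reached 109.8, 168 and 138 in control and 55.8, 84.2 and 47.3 in H/R, also without overlap.

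Cdk11b (chr4:155630194-155630340, antisense to the second intron of Gm10563) is a cyclin-dependent kinase linked to transcription and splicing, and the peak overlaps one of its own coding exons. Its fold enrichment was 269, 189 and 169.6 in control and 80.3, 87.97 and 45.6 in H/R. Eif2s2 (chr2:154886495-154888360), the beta subunit of translation initiation factor eIF2, lies antisense in the first intron of the agouti gene a and also overlaps its own coding exons. It had fold enrichments of 59.9, 78.5 and 78.5 in control and 27.1, 42.4 and 29.8 in H/R. Both regions had the higher fold enrichment in every control library. Their percentiles overlapped between the groups, and H/R minus control was 0.0119 for Cdk11b and 2.42 for Eif2s2. With Gm6451, Gm10163 and Polr3gl they were the 5 antisense regions that ranked first.

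Map1lc3b (chr8:121590477-121591037), which encodes the autophagosome protein LC3B, and Klhdc4 (chr8:121796918-121798236) were both assigned to the first intron of Gm20388. Both peaks also overlap coding exons of their own gene on the same strand. Map1lc3b had fold enrichments of 52.8, 62.8 and 55.1 in control and 20.5, 44.7 and 31.8 in H/R, again without overlap. Its percentile was 88.8, 81.8 and 81.9 in control and 87.3, 91.7 and 94.0 in H/R, higher in H/R on average, with overlap. Klhdc4 had 109, 203 and 78.5 in control and 121, 85.0 and 96.1 in H/R, and the groups overlapped. Polr3gl (chr3:96579798-96580155), a subunit of RNA polymerase III antisense in the only intron of Gm16253, also overlapped, with 98.3, 96.7 and 94.6 against 58.6, 122 and 63.99. By percentile Polr3gl stood at 96.6, 91.6 and 93.5 in control and 98.7, 98.9 and 98.4 in H/R, without overlap. The Polr3gl peak too overlaps coding exons of its own gene on the same strand.

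The pseudogenes Rps6-ps3 and Ftl2 had patterns of their own. Rps6-ps3 (chr9:53689534-53690240, sense in the only intron of the small GTPase gene Rab39) is a copy of Rps6, a protein of the small ribosomal subunit. Its fold enrichment was 889.5, 604 and 787 in control and 15.6, 32.7 and 14.8 in H/R. Among the fold enrichments of its own list it stood at percentiles 99.9, 99.7 and 99.8 in control and 80.6, 85.5 and 75.2 in H/R. Rps6 itself had no mRNA peak in the control libraries, H/R A or H/R B, and 1 peak in H/R C, enriched 7.34-fold. Ftl2 (chr4:125504288-125504839, sense in the first intron of the glutamate receptor gene Grik3) is a copy of a ferritin light chain transcript at 99.1% identity. It had 92.3, 123 and 92.0 in control and 99.99, 178 and 152 in H/R, and the groups overlapped. By percentile Ftl2 stood at 96.2, 94.6 and 93.1 in control and 99.5, 99.5 and 99.9 in H/R, without overlap.

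Because the level of fold enrichment differed between the lists, each region in all 6 lists was also ranked among the lncRNA peaks of its own list. By this percentile, 28 of 73 intronic regions (38.4%) were higher in every H/R list than in any control list, against 36.3% of the 620 lncRNA regions in all 6 lists. A further 2 of 73 (2.74%) were lower in every H/R list, against 0.968%, and these were Rps6-ps3 and Gm26870. Gm26870 (chr9:3024048-3024631), an antisense lncRNA in a stretch that holds 4 regions of this name, had fold enrichments of 523, 1012 and 2039.9 in control and 19.7, 172 and 119 in H/R. Its percentile was 99.6, 99.8 and 100 in control and 86.8, 99.5 and 99.5 in H/R. In H/R B and H/R C it thus lay only just below the control lists. At equal list length, 5 of 44 regions were higher in H/R (11.4%, against 11.3% of 442) and 5 were lower (11.4%, against 6.33%). These shares lay near the background, apart from the lower calls, which rest on 2 and 5 regions. Each percentile depends on how many weak peaks a list holds.

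**Figure D5:**
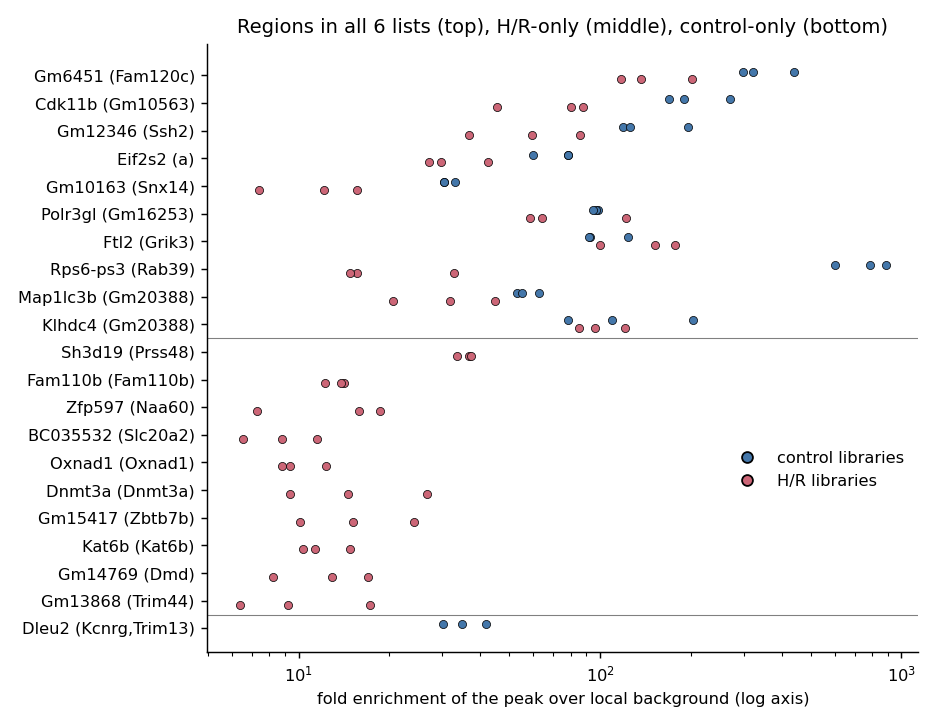
Fold enrichment (x axis, log scale) in each library of the 10 strongest regions in all 6 lists (top), the 10 strongest H/R-only regions (middle) and the control-only region (bottom), with the host gene in brackets. Points are single libraries, and a missing colour means that no peak was called in that group; Rps6-ps3 spans 14.8 to 889.5, and Gm6451 lies from 117 to 439.

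Of the 32 H/R-only regions, 19 had a p score under 100 in at least 1 H/R list. The median over the regions of the lowest p score was 92.0, against 132 for the regions in all 6 lists. The strongest was Sh3d19 (chr3:85971109-85971424), a noncoding transcript of the gene for an SH3 domain protein that binds ADAM metalloproteases. It is annotated antisense to Prss48, but the peak lies outside the span of that host, on an exon of a noncoding Sh3d19 transcript. Its fold enrichment was 33.5, 36.9 and 37.3 in the H/R libraries and its lowest p score was 1144, with no peak in any control list. This region was also H/R-only at equal list length.

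Zfp597 (chr16:3884288-3884561, antisense in the first intron of Naa60, an N-terminal acetyltransferase gene) is a noncoding transcript of a zinc finger gene. Its fold enrichment was 7.27, 15.9 and 18.7. Fam110b (chr4:5919662-5922647) was 2986 bases long and lay outside the listed host transcript of the same gene, with 12.2, 14.2 and 13.8. BC035532 (chr8:22482786-22483332, sense in the first intron of the phosphate transporter gene Slc20a2) had 8.82, 11.5 and 6.52. The values of these 3 regions were all below the median of intronic peaks in each control library, but fold enrichment was lower throughout the H/R lists. The medians of intronic peaks in the H/R libraries were 8.66, 15.4 and 9.71. Fam110b exceeded the median of H/R A and H/R C, Zfp597 that of H/R B and H/R C, and BC035532 only that of H/R A. Their other values lay below the median of the same H/R library.

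Of the 7 H/R-only regions on retained-intron transcripts, 3 were among the 10 strongest. Dnmt3a (chr12:3835027-3835456), which encodes a de novo DNA methyltransferase, had fold enrichments of 9.33, 26.6 and 14.6, and Kat6b (chr14:21624466-21626396), a histone acetyltransferase, had 10.3, 11.3 and 14.8. Both peaks overlap coding exons of the host gene on the same strand. Dnmt3a had 2, 1 and 1 mRNA peaks in the control libraries and 6, 5 and 6 in the H/R libraries, and Kat6b had 6, 4 and 4 against 6, 5 and 7. The mRNA lists grew as well: 20.2% to 27.8% of all coding genes had an mRNA peak in control and 28.6% to 38.5% in H/R. A gain of these genes beyond that growth was not tested. The third region, in Oxnad1 (chr14:32100818-32101094), had fold enrichments of 9.38, 12.3 and 8.84 and also overlaps a coding exon of its host gene on the same strand.

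Gm15417 (chr3:89391850-89392506), an antisense lncRNA in the first intron of the transcription factor gene Zbtb7b, had 24.2, 15.1 and 10.1. The pseudogenes Gm14769 (chrX:84063417-84063764), in the dystrophin gene Dmd and a copy of Fam133b at 95.1% identity, and Gm13868 (chr2:102311914-102312207), in Trim44 and matching Rpl37 at 82.2%, had 8.20, 16.9 and 12.9 and 9.20, 17.3 and 6.38. When peaks under a fold enrichment of 10 were left out, 6 of 408 regions were H/R-only (1.47%) and 2 were control-only (0.490%). Over all 2677 lncRNA regions then left, the shares were 2.02% and 0.971%.

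Of the 30 host genes with an H/R-only region, 11, 12 and 9 (36.7%, 40% and 30%) had an mRNA peak in the control libraries, and 15, 13 and 17 (50%, 43.3% and 56.7%) had one in the H/R libraries. Among all coding genes the shares were 27.8%, 22.4% and 20.2% in control and 34.9%, 28.6% and 38.5% in H/R, higher in H/R likewise. An mRNA peak of a control list lay at the place of 1 of the 32 H/R-only regions.

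The control-only region lay on Dleu2 (chr14:61602912-61603806), the lncRNA of the locus deleted in chronic lymphocytic leukaemia, antisense to Kcnrg and Trim13 in the last intron of the listed host transcript. Its fold enrichment was 30.2, 41.7 and 34.8, with p scores of 147, 184 and 157. No intronic peak of either host was called in an H/R list, and neither host had an mRNA peak in any library. Dleu2 was also control-only at equal list length.

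The 668 regions had 606 host genes, of which 493 had 1 region and 113 had more. Gm20388 had the most, with 34 regions. Its listed transcript runs from chr8:119910841 to 124345722 on the plus strand, 4.43 Mb, and holds 73 other coding genes, so its regions lie on genes such as Map1lc3b, Klhdc4, Rpl13 and the lncRNA Fendrr, and 15 of the 34 overlap an exon of a coding transcript on the same strand. Gm20388 itself had no mRNA peak in any library. Without it, 31 regions were H/R-only and 70 were in all 6 lists. Fgfr2, a fibroblast growth factor receptor, had 8 regions, and its longest listed transcript spans 2.96 Mb with 30 other coding genes. Intronic peaks assigned to Fgfr2 numbered 1, 1 and 2 in control and 4, 4 and 7 in H/R. All intronic peaks numbered 155 to 216 per control library and 271 to 456 per H/R library, so the lists grew as well.

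C130026I21Rik had 11 regions and Gm7609 had 6, and both listed transcripts run from chr1:85112267 to 85270178, a stretch of repeated gene copies. Peaks of C130026I21Rik numbered 0, 7 and 8 in the control libraries and 0, 0 and 4 in the H/R libraries. The libraries with none were control A, H/R A and H/R B, so presence did not follow the groups. Gm13152 had 6 regions with 1, 3 and 3 peaks in control and 2 in each H/R library, and Katnal1, a katanin subunit that severs microtubules, had 6 regions with 1 peak in each control library and 3, 1 and 4 in the H/R libraries.

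Host genes had an mRNA peak more often than coding genes in general. Of the coding hosts called in a library, 51.1%, 39.0% and 39.9% had an mRNA peak in control and 58.9%, 51.0% and 60.8% in H/R, against 20.2% to 38.5% of all coding genes. The mean difference was 21.4 percentage points, with hosts higher in 6 of 6 libraries (exact sign-flip permutation p = 0.0312, n = 6, not adjusted). A host is counted only where an intronic peak was called, whereas the coding genes were not limited to expressed ones. Hosts were not compared with expressed genes. Of all 606 hosts, 189 had an mRNA peak in every library and 199 had none in any.

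Host genes were counted in 7 lists of known function. Of all 21877 coding genes of the annotation, 556 (2.54%) hosted a region. None of 21 genes of the m6A machinery, 24 of the hypoxia response or 25 of mitosis hosted one. Of 34 chromatin regulators 4 (11.8%) did, namely Smarca2, Dnmt3a, Kmt2c and Suz12. Of 35 splicing factors and hnRNPs 1 (2.86%) did, Luc7l. Of 22 neuronal genes 2 (9.09%) did, Nav2 and Map2. Of 27 names of Wnt and TGF-beta signalling and axon guidance 1 (3.70%) did, Ntn1, which that list also holds as Netrin1. The splicing share and the Wnt, TGF-beta and axon guidance share rest on 1 gene each and lay near that of all coding genes. Those of chromatin regulators (4 genes) and neuronal genes (2 genes) lay above it, and no share was tested.

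In these lists, Dnmt3a held the only H/R-only region and no member held a control-only region. Smarca2, an ATPase of the SWI/SNF remodelling complex, carried 2 regions of the antisense lncRNA 4931403E22Rik. The region at chr19:26775920-26776106 lay outside the listed host transcript, on a coding exon of Smarca2 on the opposite strand, and was in all 6 lists, with fold enrichments of 25.5, 41.2 and 29.0 in control and 10.7, 24.4 and 20.9 in H/R, without overlap. Its percentile ran the other way on average, at 62.6, 63.4 and 49.5 in control and 62.8, 75.8 and 86.1 in H/R, and overlapped. Luc7l, a U1 snRNP-associated factor, held Gm16580 (chr17:26269336-26270379), a copy of the poly(A)-binding protein gene Pabpc1 at 97.1% identity, in all 6 lists. It had 28.3, 73.4 and 50.8 in control and 14.8, 31.8 and 9.55 in H/R, and these groups overlapped.

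The remaining regions of these lists were in 1 or 2 libraries. Suz12, a core subunit of Polycomb repressive complex 2, held the antisense Gm26563 in control A at 15.8 and in H/R B at 11.8. The netrin gene Ntn1 held Gm12305 in control A at 15.7 and H/R A at 7.07. Map2, Kmt2c and a region each of Nav2 and Smarca2 were called in H/R C alone, at 5.45 to 6.82, and another region of Nav2 in H/R A alone at 6.27.

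Intronic peaks carried slightly more DRACH sites than the other lncRNA peaks. The density was 20.97, 20.5 and 20.4 per kb in control and 21.1, 21.2 and 20.8 per kb in H/R, against 20.1 to 20.3 per kb among other lncRNA peaks. The mean difference was 0.627 sites per kb, with intronic peaks higher in 6 of 6 libraries (exact sign-flip permutation p = 0.0312, n = 6, 0.0491 adjusted). The median GC content differed the other way by -0.636 percentage points (exact sign-flip permutation p = 0.0312, n = 6, 0.0491 adjusted), and the part of GC content in the DRACH density was not tested. At least 1 site was present in 97.6% ± 0.83 of intronic and 98.1% ± 0.512 of other lncRNA peaks (SD, n = 6 libraries, exact sign-flip permutation p = 0.0938). Between H/R and control the density differed by 0.397 sites per kb (exact permutation p = 0.2, n = 3 each). Without peaks on exons of coding transcripts the difference was 0.940 per kb, and at equal list length it was -0.502 per kb (exact permutation p = 0.1, n = 3 each for both).

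The mRNA lists of the same libraries carried peaks on markers of neural stem cells. Of 7 markers, 3 or 4 had a peak in each library, with Nes, Sox2 and Sox9 in all 6 and Vim, Pax6 and Fabp7 in none, where an absent peak does not show an absent RNA. Of the markers of other cell types, 0 to 2 of 4 to 6 per type had a peak in any library, and the fibroblast marker Pdgfrb had one in all 6.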

How the data were processed

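MeRIP-seq lists of 6 control and H/R library pairs of C17.2 cells were used. Per the labels and the study's methods, the authors trimmed reads with cutadapt 1.9.3, aligned them with HISAT2 2.0.4 to mm10, kept uniquely mapped reads, called peaks per library against input with MACS (version not given in the sources used here) and kept peaks on exons of each RNA class. The deposited columns are the fold enrichment (a ratio over local background), a p score and the false discovery rate in percent. Lists of circular RNA peaks and read totals were not used here, so depth was not analysed and no counting interval is given.

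Peaks were reduced to 1 row per peak and transcript, merged over the lists at 1 bp overlap, and matched to GENCODE vM21 and RefSeq on GRCm38, from which the sequences were read. RNA classes were found by transcript identifier for 1042 peaks and by symbol for 349 (GENCODE) and 24 (RefSeq), and 199 stayed unmatched. Peaks were aligned to coding transcripts with BLAST 2.17.0. DRACH (A, G or T, then A or G, then A, then C, then any base but G) was sought along the lncRNA strand, with overlapping sites counted. Libraries were compared by two-sided exact permutation of group labels or, within library, of signs. Named were the 10 H/R-only, 5 control-only, 10 all-list and 5 antisense regions with the highest lowest p score, the hosts with most regions and hosts in 7 gene lists. Members and lists were chosen with earlier results of these data known, and the pseudogene, host-span, rank and sense comparisons after the values were seen. Region counting was tested on simulated lists of 600 regions, with 100% of the planted regions counted. The simulated regions lay far apart and their peaks always overlapped. The test thus checks the counting code and not the merging of short or neighbouring peaks.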

Additional observations from a re-analysis of the deposited data

How the results depend on the processing

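Of 160 alternative values of 13 results, 139 kept their direction or stayed within 1.5 times the count. The 139 include 10 values for the overlap with mRNA peaks, which are 0 because a peak was given to 1 list only. Alternatives with 1 row per peak, or without peaks that overlap an mRNA peak, could only repeat the main value. A kept direction is also not a kept size. Equal list length turned the sign of 4 differences between H/R and control: intronic peaks per library (from 185.3 to -29.0), host genes (from 178.0 to -32.7), median length (from -68.3 to 11.5 bases) and DRACH density (from 0.397 to -0.502 per kb). It also left 2 H/R-only, 2 control-only and 44 all-list regions, from 32, 1 and 73. At a p score of at least 100 the antisense share differed by -0.461 percentage points (from 1.53), and H/R-only regions numbered 21 and all-list regions 46. At a fold enrichment of at least 10, 6 of 408 regions were H/R-only (1.47%) and 2 were control-only (0.490%). The shares over all lncRNA regions were 2.02% and 0.971%. The difference between H/R and control then fell to 22.3 intronic peaks per library (from 185.3) and 34.0 host genes (from 178.0). Without pseudogenes 36 regions were in all lists and without near copies 48, both alternatives chosen after seeing the data. The causes were not tested, beyond the fewer peaks that each alternative holds.

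With each library left out in turn, H/R-only regions ranged from 36 to 77 (77 without H/R B, 49 without H/R C). Control-only regions ranged from 1 to 9 (9, 3 and 6 when control A, B or C was left out and 2 when H/R B was). Both counts can only stay or rise when a library is left out, because the rule is then looser. The difference in the intronic share ranged from -0.742 to 0.0281 percentage points, the latter without control C. No paired analysis was possible because the letters of the lists are not tied to the replicate numbers in the labels. With 3 libraries a group no permutation p can fall below 0.1, and depth was not analysed here, so an absent peak does not show absent methylation. All intronic peaks had a false discovery rate of 25.0% or more.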
